A study of Mus musculus with 3 samples.

Results

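The transient receptor potential (TRP) channels examined here are 10 genes of mouse back skin, Trpv1, Trpv2, Trpv3, Trpv4, Trpv6, Trpc1, Trpc6, Trpm4, Trpm7 and Trpm1. Every probe set whose annotated gene symbol is one of these names was taken, which gave 16 of the 45037 probe sets analysed, for 9 of the 10 genes. No probe set of Trpv3 is named here. Of the 16 probe sets, 15 reached a signal of 40 on at least 1 array, and these 15 represent 8 of the 10 genes. On all 3 arrays 9 probe sets reached it, those of Trpv2, Trpv4, Trpv6, Trpm4 and Trpm7 and the stronger one of Trpc1. The rule takes the genes by name and uses no signal, but the names were chosen with earlier results of these arrays known. Trpv6 is one of the calcium genes that the study itself picked from these arrays, so its place among them is not independent evidence.

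The data are 3 Affymetrix mouse genome arrays, each hybridized with 250 ng of pooled back-skin RNA from male mice. The WT array holds C57BL/6J mice on an AIN-93-based diet (5 mice in the group), the KO array Interleukin-10 knockout mice on that diet (7 mice), and the KOE array Interleukin-10 knockout mice on a diet with 8% pESM, powdered eggshell membrane (6 mice). Feeding began at 4 weeks of age and lasted 28 weeks, and the skin was freed of its dermal white adipose tissue. The knockout mice descend from a cross of B6.129P2-IL-10<tm1Cgn>/J with C57BL/6J, and the methods do not describe the WT mice as their littermates. Interleukin-10 is an anti-inflammatory cytokine, and the KO and KOE mice both carry its knockout in the germline. With 1 array per group there was no replicate check, no spread between mice could be measured, and no p-value is given for any difference. Which animals went into each pool is not stated.

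TRP channels are cation channels built from subunits that each span the membrane several times, and most of them let calcium into the cell. The TRPV group includes sensors of heat, warmth and swelling in nerve endings and keratinocytes, and Trpv6, a calcium-selective channel of absorbing epithelia. The TRPC channels open downstream of receptors that activate phospholipase C. The TRPM group includes Trpm4, a channel opened by calcium that itself passes sodium and potassium, Trpm7, a channel fused to a protein kinase that carries magnesium, and Trpm1, which is made in melanocytes and in bipolar cells of the retina. In the epidermis extracellular calcium drives keratinocytes to differentiate, which is the reason the study gave for measuring TRPV genes.

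The gene starts of the 3 members with the largest or best measured differences are shown first, as the 250 bases before each start from RefSeq on GRCm38.p6, on the strand of the gene. Trpm1 has 2 annotated starts on chromosome 7, and capitals mark CATGTG (or its reverse complement CACATG) and CACGTG, the letters known as the motif of Mitf, the master transcription factor of melanocytes. CACGTG is also read by other factors of the same class. Trpv6 and Trpv4 are shown with capitals for TATAAA of the core promoter, the CCAAT box, the Sp1 letters GGGCGG and the AP-1 letters TGANTCA. All motifs were searched on both strands.
Trpm1, first start, chr7:64153585-64153834, plus strand: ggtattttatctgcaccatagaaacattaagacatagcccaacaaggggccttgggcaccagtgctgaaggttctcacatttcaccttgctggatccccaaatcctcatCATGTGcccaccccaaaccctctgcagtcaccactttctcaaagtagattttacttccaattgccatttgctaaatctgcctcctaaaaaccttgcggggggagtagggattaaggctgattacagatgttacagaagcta
Trpm1, second start, chr7:64185209-64185458, plus strand: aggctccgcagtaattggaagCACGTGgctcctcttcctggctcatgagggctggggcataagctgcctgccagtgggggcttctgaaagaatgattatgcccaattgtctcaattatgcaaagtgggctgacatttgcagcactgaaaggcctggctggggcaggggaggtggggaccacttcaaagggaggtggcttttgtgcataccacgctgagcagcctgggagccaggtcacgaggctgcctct
Trpv6, chr6:41636406-41636655, minus strand: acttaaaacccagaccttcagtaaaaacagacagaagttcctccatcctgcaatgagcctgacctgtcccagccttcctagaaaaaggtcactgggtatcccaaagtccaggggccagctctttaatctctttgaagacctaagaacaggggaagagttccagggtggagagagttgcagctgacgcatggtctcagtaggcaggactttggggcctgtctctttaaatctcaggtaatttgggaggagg
Trpv4, chr5:114658422-114658671, minus strand: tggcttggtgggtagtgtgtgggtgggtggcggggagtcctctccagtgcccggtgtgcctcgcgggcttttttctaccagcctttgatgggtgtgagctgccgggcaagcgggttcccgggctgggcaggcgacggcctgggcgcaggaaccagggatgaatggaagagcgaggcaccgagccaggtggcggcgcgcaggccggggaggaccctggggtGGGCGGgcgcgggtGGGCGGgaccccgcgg

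CATGTG begins 141 bases before the first Trpm1 start, and CACGTG begins 229 bases before the second. The second start also holds CATGTG, read on the opposite strand, beginning at base 37 after the start. None of the 6 motifs is found in the printed bases of Trpv6, whereas GGGCGG begins 30 and 16 bases before the Trpv4 start. Over the 32851 RefSeq windows of 300 bases (250 before and 50 after a start), CATGTG is present in 14.2%, CACGTG in 7.15%, TATAAA in 13.6%, CCAAT in 37.4%, GGGCGG in 35.7% and TGANTCA in 7.81%. Windows were given for 9 of the 10 genes, 12 in all, and CATGTG was found in 2 of these 12 windows, both of Trpm1. Among the 9 genes of the melanocyte list with a window, 6 hold it. CACGTG was found in 3 of the 12 member windows, of Trpv3, Trpm7 and Trpm1, and in none of the windows of the 9 melanocyte genes. The motif is shown in its flanks for Trpm1 and for Tyr, Tyrp1 and Dct, the enzymes of melanin synthesis, because their signals are set beside Trpm1 further on. A match is a description of letters and not of a bound site.
Trpm1, first start, chr7:64153684-64153709: aaatcctcatCATGTGcccaccccaa
Trpm1, second start, chr7:64185485-64185508, minus strand: atgaagagCATGTGggtgcctatg
Tyr, chr7:87493518-87493543, minus strand: aaaagttagtCATGTGctttgcagaa
Tyrp1, chr4:80834157-80834182, plus strand: gggagggagtCATGTGctgcctagta
Dct, chr14:118052463-118052488, plus strand: ttattgggctCATGTGtcccagccaa
Dct, chr14:118052381-118052406, minus strand: cacttagggtCATGTGctaacaaaga

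The values are signals on a linear scale, scaled so that the trimmed mean of each array is 500. A gene was called higher or lower when 2 arrays differed at least 1.5-fold and at least 1 of both signals reached 40, and a gene with several probe sets was read from its strongest one by mean over the arrays. In KO vs. WT, 4 of the 8 genes reaching 40 were lower (Trpv1, Trpv4, Trpv6 and Trpm1) and none was higher, where over all genes 14.5% were lower and 10.9% higher. In KOE vs. KO, 1 of 6 was higher (Trpv6) and none was lower, against 10.9% higher and 5.33% lower over all genes. In KOE vs. WT, 3 of 8 were lower (Trpv1, Trpv6 and Trpm1) and none was higher, against 10.4% lower and 12.4% higher. Counted by probe set, KO vs. WT gave 7 lower and 1 higher of 15 reaching 40 (20.2% and 10.6% over all probe sets). KOE vs. KO gave 2 higher and 1 lower of 11 (14.5% and 5.93%), and KOE vs. WT gave 6 lower and none higher of 14 (14.5% and 13.2%). Among the lower ones in KO vs. WT and in KOE vs. WT are all 4 Trpm1 probe sets. Probe sets of 1 gene are not independent, so these counts give that gene more weight. With the arrays set to a common median, KO vs. WT gave 3 members lower and 2 higher (Trpv2 and Trpc1), so the absence of higher members depends on the scaling. The median log2 ratio of the members was −0.52 in KO vs. WT, 0.25 in KOE vs. KO and −0.14 in KOE vs. WT, where all genes reaching 40 had 0.01, 0.02 and 0.05. The KO array enters both KO vs. WT and KOE vs. KO, so a low KO signal moves the 2 ratios in opposite directions.

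How far 2 probe sets of 1 gene disagree on the same arrays served as a partial measure of technical error. Over genes with several probe sets, the SD of the log2 ratio of KO vs. WT between probe sets of 1 gene was 0.71 at mean signals of 40 to 200, 0.31 at 200 to 1000 and 0.17 above 1000. For KOE vs. KO it was 0.65, 0.24 and 0.16. The share of genes called lower in KO vs. WT followed the same order, with 26.5%, 10.9% and 5.2%. For genes called higher in KOE vs. KO it was 23.3%, 4.16% and 1.56%. In the lowest range 3 of 4 members were lower in KO vs. WT and 1 of 4 was higher in KOE vs. KO. Trpv4, Trpv6, Trpc1 and Trpm1 lie in the lowest of these ranges, Trpv2 and Trpm4 in the middle one and Trpm7 in the highest, while Trpv1 has a mean signal of 37.9 and lies under all of them. This spread covers differences between probe sets on the same arrays. A shift shared by all probe sets of an array cancels in it, and differences between mice are not in it.

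**Figure D1:**
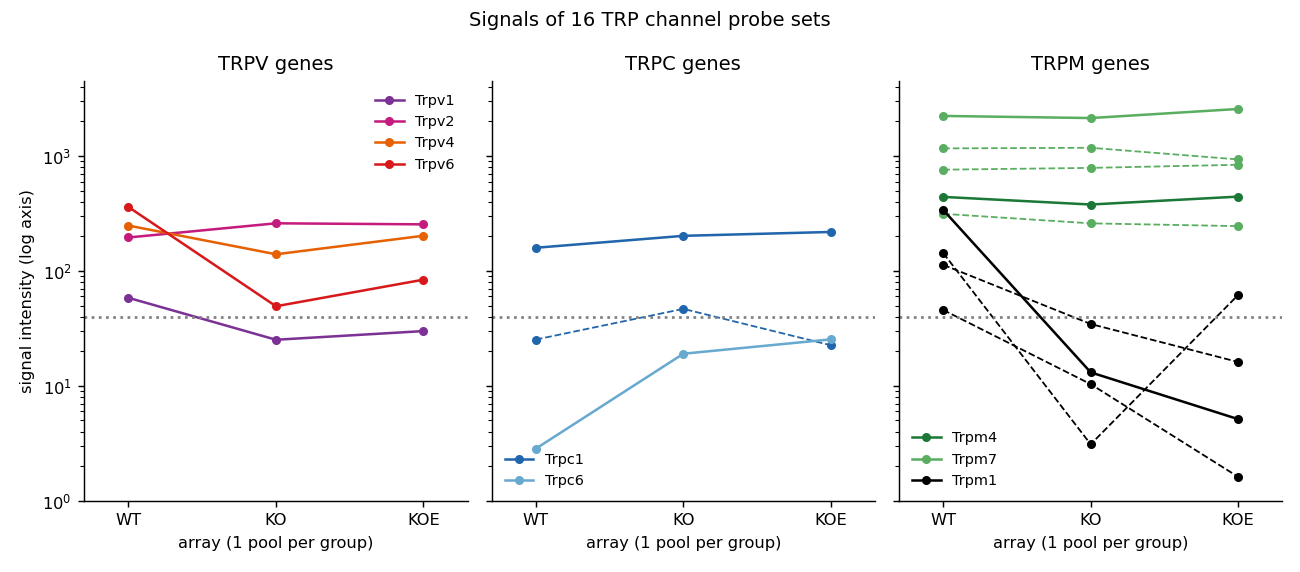
Signal intensity (log axis) of the 16 probe sets on the WT, KO and KOE arrays, with 1 pool per group, so that there are no error bars. Solid lines are the strongest probe set of each gene by mean signal, dashed lines the other probe sets, and the dotted line is a signal of 40. Trpv6 and Trpv4 have their lowest signal on the KO array, the 4 Trpm7 lines are nearly level, and all 4 Trpm1 lines start above 40 on WT and lie under 40 on KO.

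Trpv6, the calcium-selective channel through which intestine, kidney and placenta take up calcium, read 360.2 on the WT array, 49.3 on KO and 84.1 on KOE. WT was the highest and KO the lowest, and all 3 arrays were above 40. KO was 7.30-fold lower than WT (log2 ratio −2.87), KOE was 1.70-fold higher than KO (0.77), and KOE was still 4.29-fold lower than WT (−2.10). The first and last of these exceed the probe set spread of 0.71 and 0.68 at this signal several times over. The difference of KOE from KO exceeds its spread of 0.65 only slightly. With 40 added to every signal it was 1.39-fold, under the cut-off. By real-time RT-PCR of the mice of each group, the study reported Trpv6 significantly lower in both KO and KOE than in WT. For KOE against KO it reported a tendency like that of the array, which was not significant. As the RNA came from a mixture of skin cell types, fewer cells of a type and less RNA per cell cannot be told apart for this gene or any other.

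Trpv4, a channel opened by warmth, cell swelling and shear that sits with cell junctions of keratinocytes, read 248.4 in WT, 139.8 in KO and 202.6 in KOE. Its order of arrays was that of Trpv6, with smaller distances. KO was 1.78-fold lower than WT (log2 ratio −0.83), which is little more than the probe set spread of 0.71 at mean signals of 40 to 200. The mean signal of Trpv4, 196.9, lies at the edge of the next range, where the spread is 0.31. With a common median KO was 1.47-fold lower and no longer called. KOE was 1.45-fold above KO (0.54), just short of the cut-off, and 1.23-fold below WT (−0.29). By real-time RT-PCR of the mice of each group, the study reported Trpv4, like Trpv3, significantly lower in both KO and KOE than in WT. It reported both genes higher in KOE than in KO, without statistical significance.

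Trpv1, the receptor of capsaicin and painful heat in sensory neurons, read 58.4 in WT, 25.2 in KO and 30.0 in KOE. Only WT reached 40. The plain ratios put KO 2.32-fold and KOE 1.95-fold below WT, but with signals under 40 set to 40 both were 1.46-fold and neither passed 1.5. KO and KOE were both under 40, so no fold is given between them. Of 7 sensory nerve genes with a probe set, 5 were under 40 on every array, among them Scn10a, the sodium channel of pain neurons, at 8.62, 1.68 and 2.02. The other two were higher in KO than in WT, Prph at 30.1, 47.7 and 64.6 and Uchl1 at 30.6, 76.5 and 67.2, and their part in the Trpv1 value was not tested.

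Trpv2, a channel of immune cells and of large neurons, read 195.8 in WT, 260.0 in KO and 254.6 in KOE. KO was 1.33-fold above WT (log2 ratio 0.41) and KOE was level with KO (−0.03), neither past the cut-off. The macrophage marker list had summed signals of 14245, 16721 and 10828 on the same arrays. With a common median KO was 1.60-fold above WT and was called higher, and with quantile normalization 1.52-fold. For Trpv3, the warmth sensor of keratinocytes whose gene follows Trpv1 with no gene start between them in RefSeq (GRCm38.p6), no level is given because no probe set is named here.

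**Figure D2:**
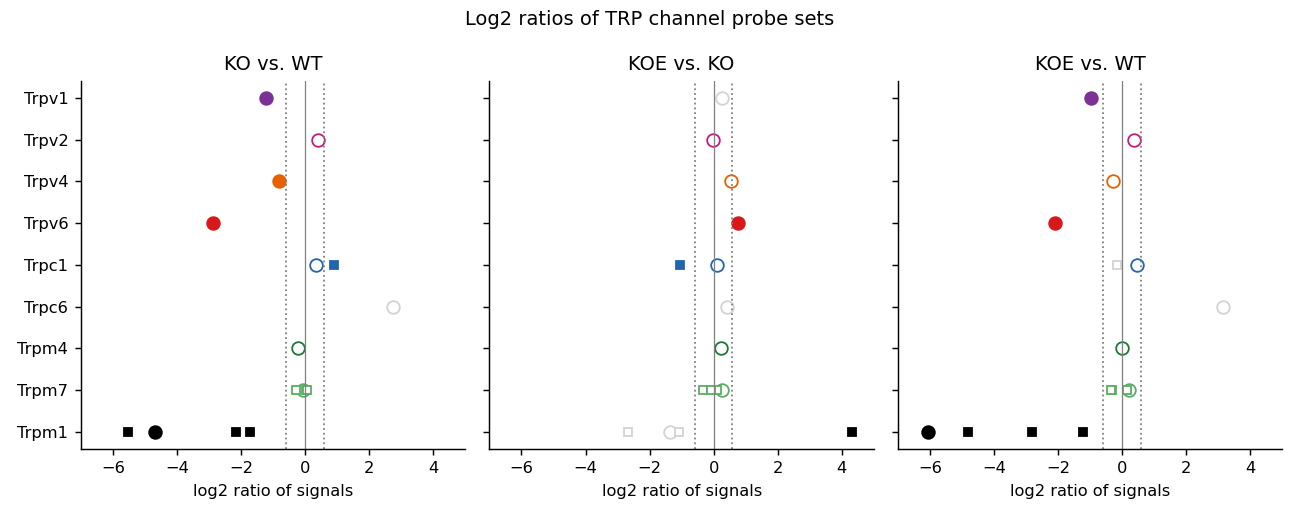
Log2 ratio of signals for each TRP probe set, with a panel for each pair of arrays. Circles are the strongest probe set by mean signal, squares the other probe sets, filled symbols passed the cut-off, and gray symbols had both signals under 40. Dotted lines mark 1.5-fold. Trpv6 lies at −2.87, 0.77 and −2.10, Trpm7 stays between the dotted lines in each panel, and the Trpm1 symbols spread from −5.53 to −1.71 in KO vs. WT.

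Trpc1, a subunit of receptor- and store-operated channels present in most tissues, had 2 probe sets that did not move together. The stronger read 159.2 in WT, 202.3 in KO and 218.7 in KOE, a ratio of 1.27 for KO vs. WT and of 1.08 for KOE vs. KO, neither past the cut-off. The weaker read 25.3, 46.8 and 22.6, so that only KO reached 40. On that probe set KO was 1.85-fold above WT and 2.07-fold above KOE, both past the cut-off. The probe sets thus gave opposite directions for KOE vs. KO (log2 ratio 0.11 and −1.05), and only the stronger is above 40 on all 3 arrays.

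Trpc6, a channel opened directly by diacylglycerol and known from smooth muscle and kidney podocytes, read 2.84 in WT, 19.0 in KO and 25.4 in KOE. All 3 signals were under 40, and no fold is given. The 7 smooth muscle markers were all higher in KO than in WT (10.9% over all genes), with summed signals of 16000, 25827 and 27369.

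Trpm7, the channel kinase for magnesium, calcium and zinc, was read by 4 probe sets. They gave 2236, 2143 and 2571 (WT, KO and KOE), then 1167, 1181 and 934.9, then 761.5, 789.4 and 840.4, and 314.5, 259.8 and 245.7. None of the 12 ratios over the 3 comparisons passed 1.5-fold, and the strongest gave log2 ratios of −0.06 in KO vs. WT, 0.26 in KOE vs. KO and 0.20 in KOE vs. WT. The last 2 are above the probe set spread of 0.16 at signals over 1000, yet the second probe set turned the other way with −0.34 and −0.32. Over 13 settings the log2 ratio of KO vs. WT for Trpm7 ran from −0.15 to 0.21. The SD over the 4 log2 ratios was 0.15, 0.26 and 0.30 for the 3 comparisons.

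Trpm4, the channel that calcium opens to depolarize mast cells, T cells and muscle, read 441.4 in WT, 378.9 in KO and 443.9 in KOE. KO was the lowest, but its log2 ratios of −0.22 to WT and 0.23 for KOE vs. KO were within the spread of 0.31 and 0.24 at this signal. KOE and WT were level (0.01). Over 13 settings the log2 ratio of KO vs. WT ran from −0.22 to 0.05, so its sign turned with the scaling. The mast cell list had summed signals of 1682, 2817 and 1458, highest in KO.

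Trpm1 had the largest difference of the members. Its strongest probe set read 339.8 in WT, 13.1 in KO and 5.13 in KOE. Only WT reached 40, and with the other two set to 40 WT was 8.49-fold above each (the plain ratios were 25.9 and 66.2). The other probe sets read 143.3, 3.10 and 61.9, then 113.2, 34.6 and 16.1, and 45.8, 10.4 and 1.61. All 4 probe sets were above 40 in WT and under 40 in KO, and all 4 passed the cut-off as lower in KO vs. WT and in KOE vs. WT. With signals under 40 set to 40, the weakest of the 4 was only 1.14-fold lower in both comparisons and did not pass. KOE was above 40 on 1 probe set of 4, where it exceeded KO by at least 1.55-fold if KO is set to 40. On the other 3, KO and KOE were both under 40, so the 4 probe sets do not give 1 direction for KOE vs. KO.

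Melanocyte genes were lower along with Trpm1. Of the 13 with a probe set, 11 were lower in KO vs. WT (14.5% over all genes) and 2 were not past the cut-off (Mitf and Sox10). The median log2 ratio was −2.78. Tyr, which makes melanin from tyrosine, read 1266 in WT, 32.9 in KO and 51.9 in KOE. Tyrp1 read 3125, 126.9 and 210.2, Dct 4761, 285.2 and 717.9, and Pmel, the fiber protein of the pigment granule, 3117, 128.6 and 370.1. Mitf itself read 1948, 1529 and 1670, and Sox10, a factor of melanocytes and Schwann cells, 211.1, 310.4 and 344.4. In KOE vs. KO, 5 of 12 melanocyte genes were higher (Tyr, Tyrp1, Dct, Pmel and Mc1r) and none was lower (10.9% and 5.33% over all genes). In KOE vs. WT 11 of 13 were lower (10.4% over all genes). Of 18 hair follicle genes 16 were lower in KO vs. WT, and their summed signal was 182858 in WT against 6741 in KO and 6111 in KOE. The part of either cell type in the Trpm1 and Trpv6 values was not tested.

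**Figure D3:**
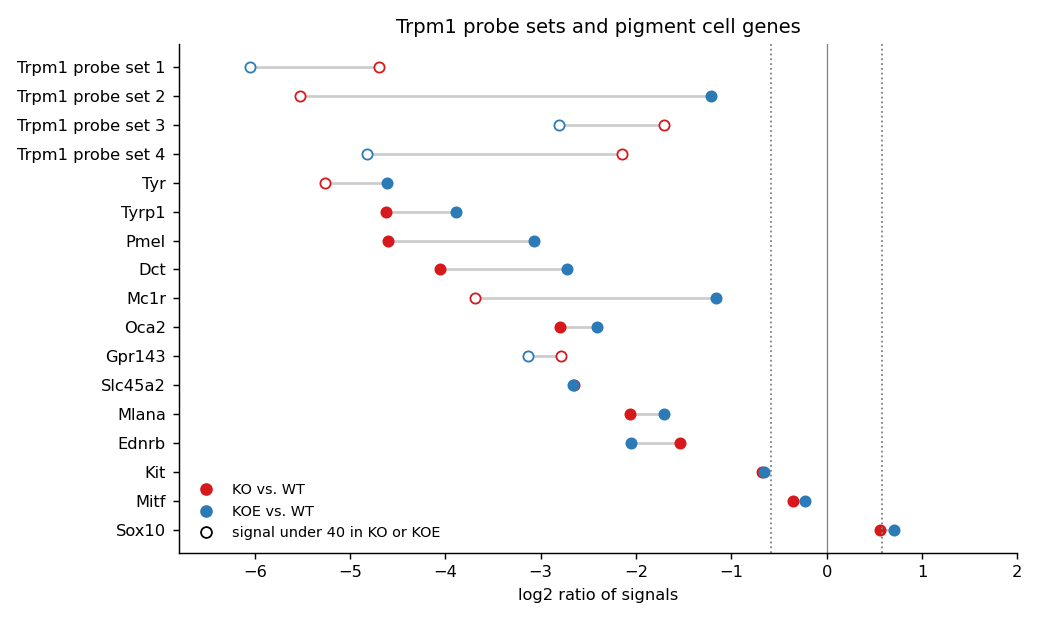
Log2 ratio of signals in KO vs. WT (red) and KOE vs. WT (blue) for the Trpm1 probe sets, numbered by falling mean signal, and for 13 genes of melanocytes, each read from 1 probe set. Open symbols have a KO or KOE signal under 40, and dotted lines mark 1.5-fold. Trpm1 probe set 1 lies at −4.70 and −6.05 and probe set 3 at −1.71 and −2.81, Tyr lies at −5.27 in KO vs. WT, and Kit, Mitf and Sox10 lie nearest to 0.

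Trpm1 holds a microRNA gene within its span, and so does Trpm3, whose strongest probe set was higher in KO (107.3 in WT, 164.8 in KO and 180.6 in KOE). The other Trpm3 probe set above 40 on all arrays read 67.2, 59.8 and 64.6, so the probe sets of Trpm3 do not give 1 direction. The microRNAs' 5p products are shown because they share the seed, bases 2 to 8, given in capitals. Counted from 1 at the 5′ end, they differ by U17A, with miR-211-5p first. Coordinates are from GRCm38.p6, and levels of the microRNAs were not analysed here.
mmu-miR-211-5p, within Trpm1, chr7:64205831-64205852: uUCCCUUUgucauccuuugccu
mmu-miR-204-5p, within Trpm3, chr19:22750610-22750631: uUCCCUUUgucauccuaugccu

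The genes whose 3 signals were most like those of Trpv6 and Trpv4 were sought among 11724 genes with at least 40 on each array and a mean of at least 100, by the distance over the log2 ratios of KO vs. WT and KOE vs. WT. For Trpv6 the nearest was Dclk3, a kinase, at a distance of 0.153 (320.9 on the WT array, 45.5 on KO and 67.8 on KOE), followed by Syt7, a calcium sensor of vesicle fusion, at 0.174 (329.1, 50.1 and 81.6) and Ptprv at 0.266. Only 2 genes lay within 0.25 of Trpv6, but genes that fell under 40 in KO were not searched, which can lower this count. The pattern of Trpv4 was common, with 247 genes within 0.25 and Alcam, Itga4 and Dffb the nearest. No likeness is given for Trpv1 and Trpm1, whose KO and KOE signals were under 40.

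Outside the members, 18 further genes of the TRP superfamily were listed, and 15 have a probe set named here. In KO vs. WT 7 of the 13 reaching 40 were lower and 2 higher (14.5% and 10.9% over all genes), with a median log2 ratio of −0.80. Among all genes with mean signals of 40 to 200, 26.5% were lower. With a common median 6 of the TRP genes were lower and 2 higher. The largest of those read well above 40 were Trpm6, the magnesium channel of kidney and gut, at 402.9 on the WT array, 124.8 on KO and 117.5 on KOE, and Mcoln3, a channel of endosomes that is also known from pigment cells, at 349.7, 111.7 and 167.3. A further probe set of each moved alike, from 68.8 to 28.3 for Trpm6 and from 236.5 to 65.0 for Mcoln3. Trpc2, the pheromone channel of the vomeronasal organ, read 294.3, 149.9 and 209.9, and Mcoln1, the lysosomal channel, 670.6, 637.1 and 642.0. A weaker Trpc2 probe set read 185.5, 106.8 and 102.1, so KOE was not above KO on it. The weaker Mcoln1 probe sets read 326.3, 402.0 and 328.3, and 119.8, 67.6 and 63.2, so the Mcoln1 probe sets did not move together.

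Most of the remaining TRP genes were under 40 on at least 1 array. Trpa1, the irritant receptor of pain neurons, read 49.6 in WT, 4.73 in KO and 8.86 in KOE. Trpc4 read 81.3, 40.9 and 48.3, Trpc5 50.1, 28.8 and 48.8, and Trpc7 90.9, 15.4 and 62.1, all 3 lowest in KO. Trpm2 read 73.5, 79.0 and 71.1 and Mcoln2 110.9, 116.3 and 81.0, neither past the cut-off in KO vs. WT. A weaker Trpm2 probe set read 24.4, 63.0 and 62.3. Trpm5 read 18.7, 50.8 and 33.5, Pkd2l1 21.7, 21.8 and 53.5, and Pkd2l2 42.9, 34.8 and 69.6. In KOE vs. KO 4 of 13 were higher (Trpc5, Trpc7, Pkd2l1 and Pkd2l2) and Trpm5 was lower, against 10.9% and 5.33% over all genes. Among all genes with mean signals of 40 to 200, 23.3% were higher. With a common median 4 of the TRP genes were higher and 2 lower. Trpm8, the receptor of cold and menthol, was under 40 throughout.

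**Figure D4:**
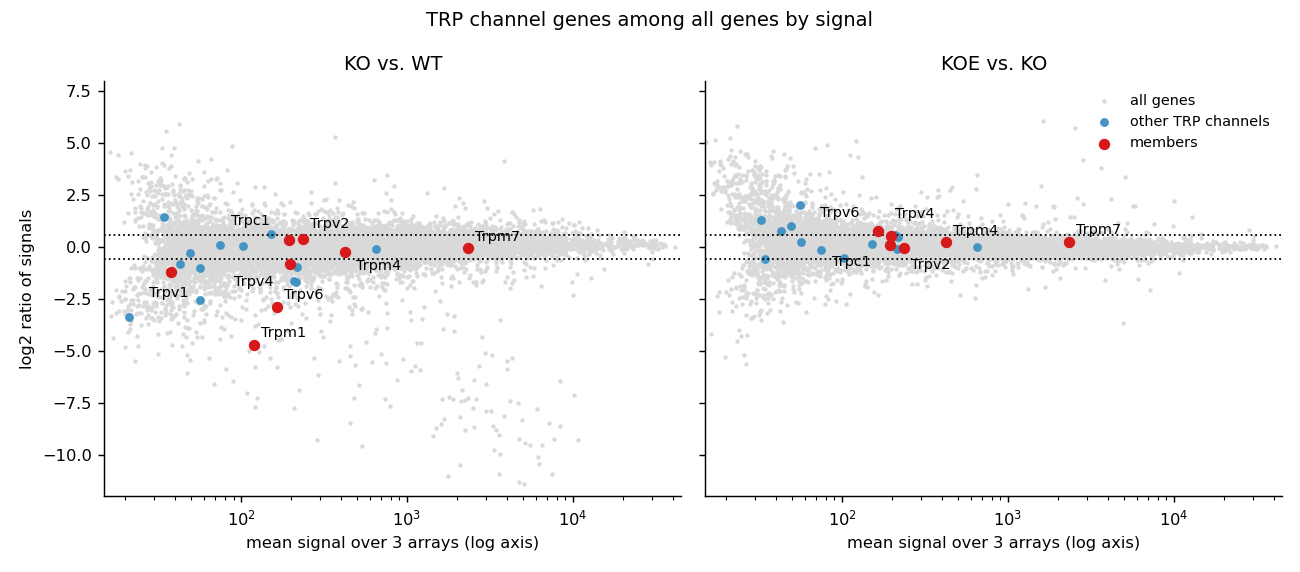
Log2 ratio of signals against the mean signal over 3 arrays (log axis) for all genes (gray), other TRP channels (blue) and the members (red), in KO vs. WT and KOE vs. KO, for genes with a signal of at least 40 in 1 of the 2 arrays. Dotted lines mark 1.5-fold. The gray cloud is wider at low signals, Trpm1 and Trpv6 lie lowest of the members in KO vs. WT, and in KOE vs. KO Trpv6 alone of the members is past the dotted line.

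Of 20 genes listed for calcium transport across an epithelium, beside Trpv6, 13 reached 40 in KO vs. WT. Of these, 3 were lower and 1 higher (14.5% and 10.9% over all genes), and with a common median 2 were lower and 4 higher. The median log2 ratio was 0.01. The lower ones were Casr, the calcium-sensing receptor, at 82.7 in WT, 37.5 in KO and 76.4 in KOE, Cyp27b1, which activates vitamin D, at 73.8, 23.1 and 4.32, and Vdr, the vitamin D receptor, at 2363, 1510 and 1897. Vdr was named after its values were seen. The higher one was the calcium pump Atp2b2 at 15.1, 49.0 and 21.0. The partners that carry Trpv6 to the membrane were abundant, with S100a10 at 13658, 20187 and 16234 and Anxa2 at 19948, 25450 and 24760, neither past the cut-off. The calcium buffers S100g and Calb1 were under 40. Of 15 reaching 40 in KOE vs. KO, 4 were higher, Casr, Slc8a1, Slc8a3 and Cyp24a1, each of them under 40 in KO. Atp2b2 was lower. The shares over all genes were 10.9% higher and 5.33% lower.

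Of 14 partners and targets of Trpv3 and Trpv4 in keratinocytes, 3 were higher and 1 lower in KO vs. WT (10.9% and 14.5% over all genes). The counts were the same with a common median. Tslp, a cytokine of itching skin, read 100.4 on the WT array, 302.8 on KO and 139.8 on KOE, and Il1a 69.0, 154.7 and 135.3. Pacsin3, which binds Trpv4, read 334.3, 510.4 and 626.4 and was named after its values were seen. Tgm3, a crosslinking enzyme of hair and cornified cells, was the lower one at 481.2, 88.6 and 93.9. The junction proteins that bind Trpv4 were not past the cut-off, with Ctnnb1 at 18117, 15690 and 17068 and Ctnna1 at 9999, 10301 and 11738. Between KO and KOE only Tgm5 (1115 to 1867) was higher and only Tslp lower, against 10.9% and 5.33% over all genes. With a common median none was higher and 2 were lower.

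Store-operated calcium entry works beside the TRPC channels. Among 12 of its genes, 3 were higher in KO vs. WT and 1 lower (10.9% and 14.5% over all genes), and with a common median 5 and 1. The calcium release channels Itpr3 (2269 in WT and 3562 in KO) and Itpr2 (566.6 and 874.3, named after its values were seen) and the scaffold Homer2 (1753 and 2924) were higher. Orai2, a pore subunit, was lower, at 211.5 on the WT array, 84.3 on KO and 129.5 on KOE. It was the only one higher in KOE vs. KO (10.9% over all genes), at 1.54-fold, though with a common median none was. Stim1, the calcium sensor that gates these pores, read 860.8, 1088 and 951.7.

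Of the receptors, phospholipases and lipid enzymes that open or sensitize TRP channels, 23 reached 40 in KO vs. WT. Of these, 3 were higher and 4 lower (10.9% and 14.5% over all genes), and with a common median 4 were higher and 1 lower. The higher ones were Il31ra, a receptor of itch, at 206.0 in WT, 473.9 in KO and 446.2 in KOE, Osmr, its partner subunit, at 1369, 2234 and 1789, and Plcb4 at 1297, 2170 and 2026. The lower ones were Plcg2 at 858.1, 550.3 and 939.3, Plcb2 at 41.4, 13.3 and 5.27, Alox15 at 66.4, 28.4 and 16.0, and Dagla, chosen after its values were seen, at 121.9, 73.7 and 116.7. Plcg2, Dagla, Akap5 and Pirt were higher in KOE vs. KO and none was lower (10.9% and 5.33% over all genes). With a common median 3 were higher. Pirt, a regulator of Trpv1 in sensory neurons, reached 40 only in KOE (19.8, 2.95 and 45.6).

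Of 10 magnesium transporters, set beside Trpm7, 2 were higher and none lower in KO vs. WT (10.9% and 14.5% over all genes). The counts were the same with a common median. Slc41a3 read 164.2 on the WT array, 354.6 on KO and 214.0 on KOE, and Cnnm4 39.7, 70.4 and 19.6. Both were lower in KOE vs. KO, where Cnnm2 alone was higher (92.8 to 141.3), against 5.33% lower and 10.9% higher over all genes. With a common median Cnnm2 was not higher. Magt1 was not past the cut-off at 2511, 2705 and 2454.

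Marker lists of the labelled tissue were read on each array. Basal epidermis genes had a median log2 ratio of 0.30 in KO vs. WT and 0.05 in KOE vs. KO, with Krt5 at 19214, 23513 and 24499, and all 10 suprabasal genes stayed within 1.5-fold in both. Median log2 ratios in KO vs. WT were 0.22 for sebaceous genes, 0.63 for endothelium, 0.28 for T cells, 0.47 for Schwann cells and −0.34 for fibroblasts. Skeletal muscle genes, of the muscle layer under the skin, summed to 37133 in WT against 12644 in KO and 51684 in KOE, and adipocyte genes 19148, 5507 and 11810. Fibroblast genes summed to 153078, 118424 and 147690 on the WT, KO and KOE arrays, and melanocyte genes to 18242, 3425 and 4491. The muscle, adipocyte, fibroblast and melanocyte lists have their lowest sums in KO, as Trpv4 and Trpv6 have their lowest signals. The part of these lists in those values was not tested. The Il10 probe set read 17.0 in WT, 679.9 in KO and 401.0 in KOE. Which part of the altered allele it reads is not stated, so it does not check the genotype.

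**Figure D5:**
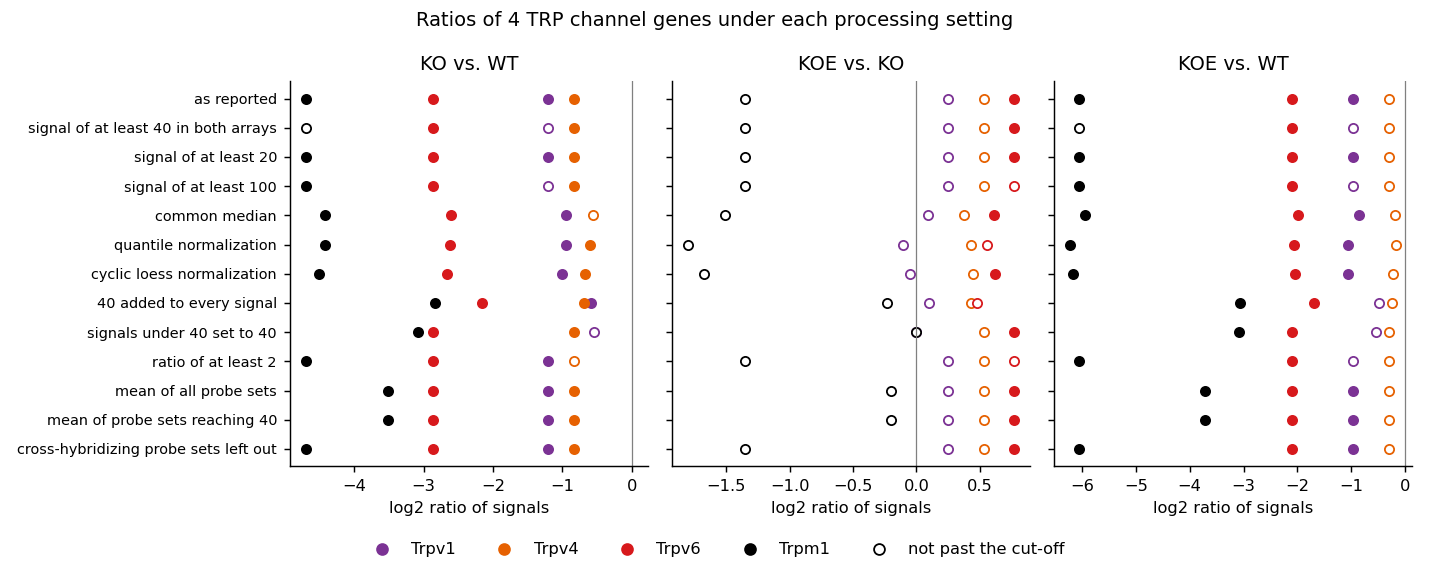
Log2 ratio of signals of Trpv1, Trpv4, Trpv6 and Trpm1 under 13 settings, one per line, with a panel for each pair of arrays. Filled symbols passed the cut-off of that setting and open symbols did not. Several settings leave the ratios of Trpv6 and Trpv4 unchanged, so the lines are not separate checks. Trpv6 is filled on every line in KO vs. WT and KOE vs. WT, but on 9 of 13 lines in KOE vs. KO, and Trpv4 is open on every line of KOE vs. KO.

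Trpv6 stayed lower in KO than in WT under all 13 settings, with log2 ratios from −2.87 to −2.16, and was past the cut-off as higher in KOE vs. KO in 9 of them. Over all 13 the log2 ratio of KOE vs. KO ran from 0.47 to 0.77. Trpv4 was lower in KO vs. WT in 11 of 13, the exceptions being a common median and a ratio of at least 2, and over all 13 its log2 ratio ran from −0.83 to −0.56. Trpm1 was lower in KO vs. WT in 12 of 13, the exception being 40 required in both arrays, and over all 13 its log2 ratio ran from −4.70 to −2.84. Trpv1 was lower in 10 of 13, but not with 40 in both arrays, with a limit of 100 or with signals under 40 set to 40, and over all 13 its log2 ratio ran from −1.21 to −0.55. The settings share the same 3 arrays and do not stand for replicates. Trpv6 and Trpv4 each have 1 probe set, above 40 on all arrays. For these genes only the scalings and the added 40 change the ratio, while the other settings change no more than the limits. Of the settings that change the ratio, Trpv6 was called higher in KOE vs. KO with a common median and cyclic loess. With quantile normalization and with 40 added it was not called.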

How the data were processed

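Total RNA of back skin was pooled within each group, labelled with a 3′ IVT kit and hybridized to 1 array per group. The authors made signal intensity values on a linear scale with the Affymetrix Microarray Analysis Suite and deposited them for each array. The 2% trimmed mean was checked to be 500 on each. Of 45101 probe sets 64 controls were left out. Of the rest, 34945 have 1 gene symbol in the platform annotation, 932 several and 9160 are unnamed here. Names were updated through the gene identifier for 34741, giving 18193 genes, of which 15010 reached 40. From 65.3% to 69.5% of probe sets reached 40 on an array, and median signals were 96.3 to 116.0. The number of arrays limits the precision.

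Ratios, counts and medians were computed in Python 3.11.15 with pandas 2.3.3, and cyclic loess (span 0.7, 3 iterations) in R 4.3.3 with limma 3.58.1. A call needed a 1.5-fold ratio, up or down, and a signal of 40 on 1 of the 2 arrays. Both limits are those of the methods, which do not state on which arrays 40 must be reached. The code that makes the calls was tested on simulated data, which gives no error rate for the calls reported. The text names the members, the other TRP genes, the strongest 3 genes and up to 3 of the most different genes of each list, and the 3 genes nearest to each called member above 40 on all arrays. Some of these are given as counts only. Members and lists were chosen with earlier results of these data known. Alternatives changed the signal and fold limits, the scaling, the handling of low signals and the joining of probe sets. Sequences are RefSeq's, on GRCm38.p6.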

Additional observations from a re-analysis of the deposited data

How the results depend on the processing

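No paired analysis was possible because each group has 1 array. For the same reason no replicate could be left out. The count of members lower in KO vs. WT was 4, and 2 with 40 required in both arrays (Trpv4 and Trpv6). In KOE vs. WT it was 3, and 1 under that rule (Trpv6). The single member higher in KOE vs. KO gave 0 at a signal of at least 100, with quantile normalization, with 40 added to every signal and at a ratio of at least 2. Members higher in KO vs. WT were 0, but 2 with a common median (Trpv2 and Trpc1), 1 with quantile normalization (Trpv2), and 1 each with the mean of all probe sets and of those reaching 40 (Trpc1). Members higher in KOE vs. WT were 0, but 1 at a signal of at least 20 (Trpc6) and 1 with quantile normalization (Trpc1). No called member changed direction. The cause of these moves was not tested beyond the setting itself.

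A common median shifts the median log2 ratio of all probe sets by 0.27 in KO vs. WT, −0.16 in KOE vs. KO and 0.11 in KOE vs. WT. Of all genes called in KO vs. WT, 42.9% were higher, against 72.4% with a common median, 57.5% with quantile and 52.5% with loess normalization. In KOE vs. KO these shares were 67.1%, 47.1%, 49.6% and 48.7%, and in KOE vs. WT 54.3%, 66.6%, 58.1% and 51.5%. Over all settings, genes called in KO vs. WT numbered 619 to 3381 higher (1582 as reported) and 1125 to 2644 lower (2105), in KOE vs. KO 647 to 2291 higher (1585) and 334 to 1326 lower (778), and in KOE vs. WT 715 to 2512 higher (1831) and 828 to 1950 lower (1543). Signals under 40 bound what can be said of Trpc6, of Trpv1 and of Trpm1 in KOE vs. KO.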
